A study of Mus musculus with 6 samples.

Results

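Antioxidant, glutathione and metallothionein genes were followed across 6 arrays of 21EM15 cells, an epithelial line derived from the mouse lens. The list held 43 genes chosen by name for their role in redox defence, with earlier results of these data known. Of these, 39 had a probe named for them on the array and 37 were detected well enough to be tested, among 9200 genes tested in all. Expression was measured on 1-colour Illumina bead arrays with 45281 probes. In the 3 control samples the lentiviral construct held GFP. In the 3 knockdown samples it held shRNA, a short hairpin RNA, directed at Tdrd7, whose Tudor domain product sits in RNA granules of the cytoplasm. All samples thus share the cell line and a lentiviral construct. No shRNA is named for the controls, so the hairpin as such and reduced Tdrd7 cannot be told apart. Arrays are numbered 1 to 3 for control and 4 to 6 for knockdown.

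Cells hold reactive oxygen in check with linked systems. Superoxide dismutases turn superoxide into hydrogen peroxide, which catalase, glutathione peroxidases and peroxiredoxins remove. Glutathione and thioredoxin supply the electrons and are kept reduced at the cost of NADPH. The transcription factor NRF2, encoded by Nfe2l2, drives many of these genes through the antioxidant response element (ARE) and is held in check by KEAP1. Metallothioneins are small cysteine-rich proteins that bind zinc and copper, and their genes respond to metals through metal response elements (MREs). The lens is rich in glutathione, and oxidative damage to its proteins is a known feature of cataract.

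Between 37.2% and 38.8% of probes were detected on each array, and the median probe intensity lay between 72.6 and 82.6 units. Tdrd7 was at 9.38, 9.80 and 9.93 log2 units on the control arrays and at 7.67, 7.46 and 8.42 on the knockdown arrays. Of 10 lens epithelium markers on the array, 7 were detected, among them Pax6 and Cryab, while Foxe3 was not. Of 8 lens fibre markers on the array, 0 were detected, and of 4 immune cell markers 1 was, Cd3e, close to background. Of 8 fibroblast or mesenchymal markers 7 were detected, so these markers do not set the line apart from mesenchymal cells. Across tested genes array 4 correlated with the rest at 0.957 on average, and the other arrays at 0.971 to 0.976. The labels do not say whether replicates were separate cultures, so p-values here reflect the scatter of these 6 samples alone, and that scatter may be technical. Of the 7 fibroblast or mesenchymal markers tested, 6 were above 0 in the comparison of knockdown with control, with a median log2 difference of 0.20. Of the 7 lens epithelium markers tested, 5 were below 0, with a median of -0.16. Single markers differed by more, with log2 differences of 1.61 ± 0.61 (SE) for Col3a1 and 0.73 ± 0.31 for Col1a1, both collagen genes. Pax6, at 1.00 ± 0.33, went against the direction of the lens epithelium median. Its groups overlapped, at 6.53, 5.47 and 5.45 log2 units in control and 7.22, 6.73 and 6.51 in knockdown. Of these, 5.47 and 5.45 are close to the lowest detected signal, 5.23 to 5.34. No marker passed the limma test, and the part of these markers in the results that follow was not tested. In bulk samples, fewer cells of a type and less RNA per cell cannot be told apart.

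Comparing knockdown with control in limma, 0 of the 37 tested members had an adjusted p under 0.05, as had 0 of all 9200 genes (0%). The lowest adjusted p among the members was 0.982. At an unadjusted limma p under 0.05 there were 2 members, Selenon and Gsta4, which is 5.41% of those tested, beside 3.29% of all genes. Knockdown lay wholly above control for 1 member, Gsta4, where 4.33% of all genes did so. It lay wholly below control for 1 member, Selenon, where 3.5% of all genes did so. A difference of 0.5 log2 units or more was fitted for 1 member, Selenon, and for 5.95% of all genes. The shares of the members are thus near those of all genes. The median log2 difference was -0.073 over the members and 0.014 over all genes, with 23 members below 0 and 14 above, while 52.3% of all genes were above 0. This median rests on single arrays: it was -0.020 without control array 1, -7.2e-04 without control array 3, -0.015 without knockdown array 4 and -0.013 without knockdown array 5. Without control array 3, 19 of the 37 members were below 0. The median half-width of the 95% confidence interval was 0.52 log2 units for the members, so differences smaller than this were generally not resolved with 3 arrays a group. These intervals are not adjusted for the number of genes, and much larger differences also failed the adjusted threshold. Tdrd7 itself, the targeted gene, had a log2 difference of -1.85 ± 0.28 (SE) and an adjusted limma p of 0.765. A count of 0 members past the threshold thus does not show that they were unchanged.

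**Figure D1:**
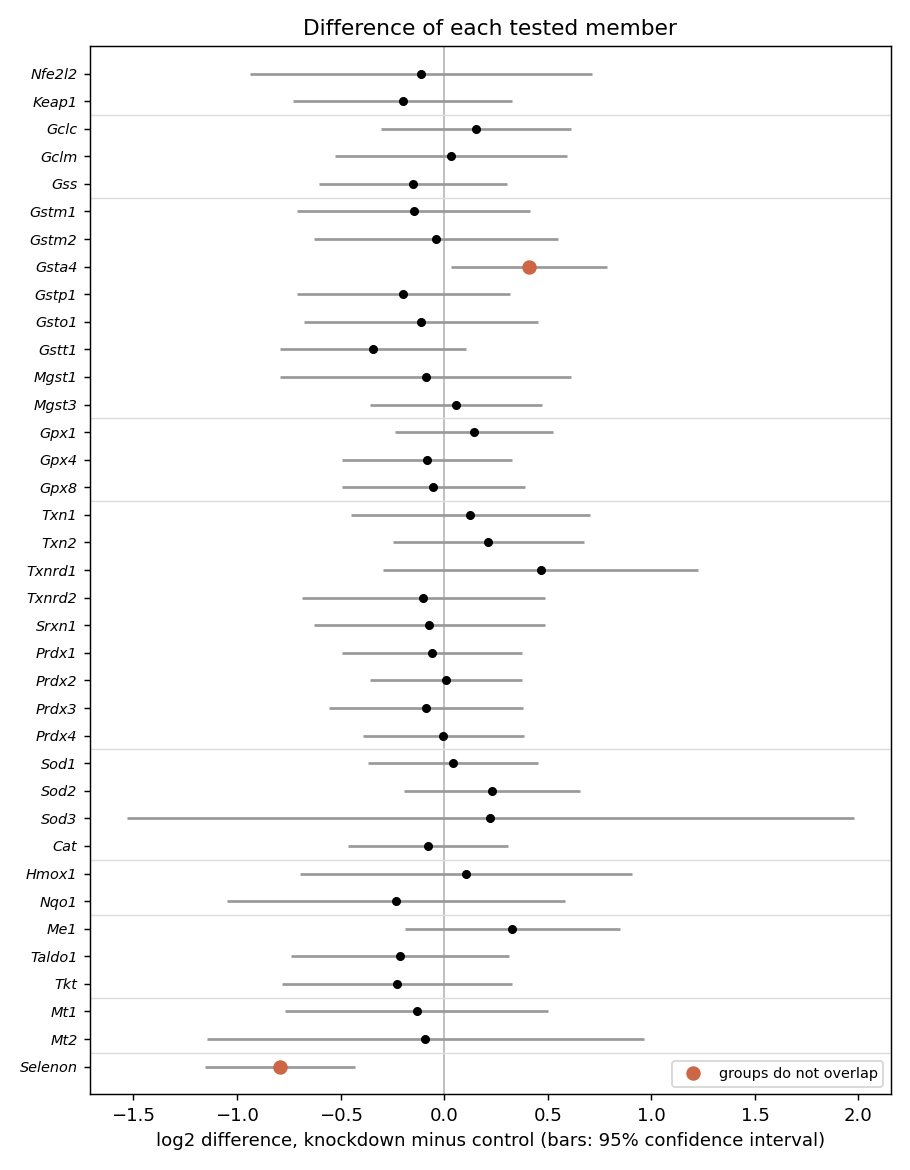
The horizontal axis is the log2 difference, knockdown minus control, of each of the 37 tested members, listed by role, with its 95% confidence interval as a bar. Orange points mark Selenon and Gsta4, the members whose groups do not overlap. The intervals of all other members span 0, and that of Sod3, from -1.53 to 1.98, is far wider than the rest.

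Selenon encodes selenoprotein N, a selenocysteine protein of the endoplasmic reticulum membrane that is linked to calcium handling and, when mutated, to muscle disease. Its signal was 11.12, 11.03 and 11.004 log2 units on the control arrays and 10.24, 10.28 and 10.25 on the knockdown arrays. The 3 knockdown values lay within 0.034 log2 units of each other, and a gap of 0.73 separated them from the lowest control value. This is a log2 difference of -0.79 ± 0.16 (SE), whose 95% confidence limits were -1.16 and -0.43. It leaves 57.7% of the control level, and the interval of this ratio ran from 0.449 to 0.741. The unadjusted limma p was 9.7e-04, which ranked 8 among 9200 genes, and the adjusted p was 0.982. As the list was chosen with earlier results of these data known, this rank is only a description. By an exact permutation test, two-sided, p was 0.1, and a design of 3 against 3 cannot go lower. Before normalization the intensities were 2691, 1840 and 1827 in control and 1509, 1488 and 947 in knockdown, also without overlap. Over the 15 alternatives in processing the difference ranged from -0.82 to -0.74. Its adjusted p in these limma fits ranged from 0.19, with array weights, to 1.00. The gene has 1 probe on the array, so no other probe could be compared.

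Genes of other selenoproteins had smaller fitted differences than Selenon, but their intervals were wide. Those of Selenop, from -1.16 to 0.45, and Txnrd3, from -0.86 to 0.48, include the log2 difference of Selenon, -0.79. Including Selenon but not the synthesis factors below, 15 selenoprotein genes were tested, and the groups overlapped for each of the other 14. Of these, 8 were above 0 and 6 below, from -0.35 for Selenop, the plasma selenium carrier, to 0.47 for Txnrd1. The glutathione peroxidase genes among them were at 0.14 ± 0.17 for Gpx1 and at -0.08 ± 0.18 for Gpx4 (log2 difference ± SE). The selenoprotein synthesis factors Sephs2 and Secisbp2, which make the selenium donor and read the selenocysteine signal, were at -0.23 ± 0.26 and 0.24 ± 0.17. Sephs2, itself a selenoprotein gene, was counted with the synthesis factors only, and its groups overlapped. For Secisbp2 all 3 knockdown arrays lay above all 3 control arrays, at 7.06, 6.99 and 7.11 log2 units against 6.91, 6.61 and 6.90. The difference between Selenon and the other genes was not tested, and Selenon was singled out for its values in these same data.

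**Figure D2:**
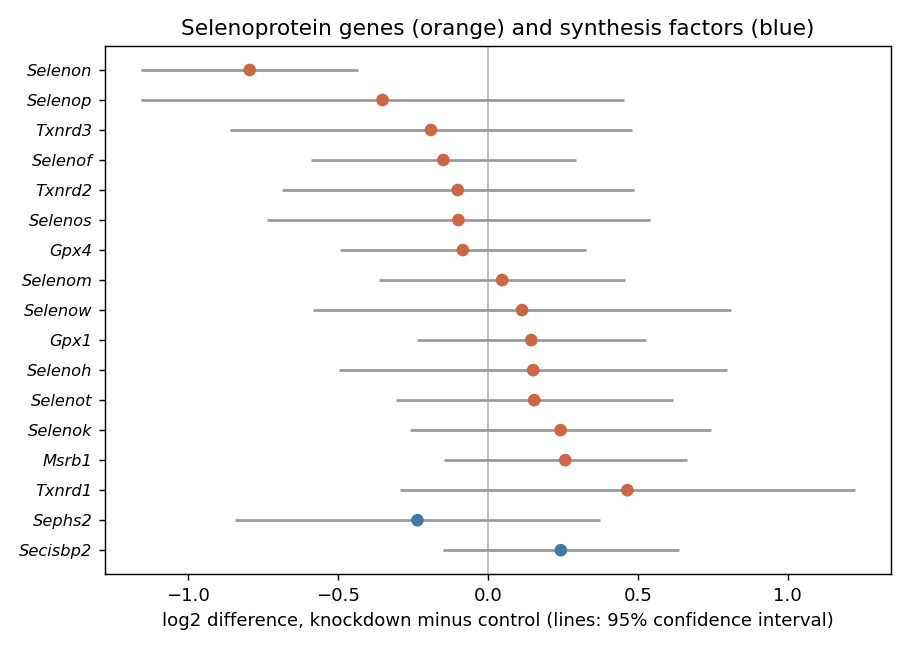
Each row is a selenoprotein gene (orange) or a factor of selenoprotein synthesis (blue), with its log2 difference, knockdown minus control, on the horizontal axis and the 95% confidence interval as a line. Sephs2, which is both, is shown in blue. The interval of Selenon, from -1.16 to -0.43, lies wholly below 0, and those of the other 16 genes include 0.

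Among the glutathione transferases, which join glutathione to reactive compounds, 2 of the 8 tested members were above 0 and 6 below. Gsta4, whose enzyme acts on reactive aldehydes from lipid peroxidation, was at 8.68, 8.83 and 8.66 log2 units in control and at 9.03, 9.15 and 9.21 in knockdown. All 3 knockdown arrays were higher than all 3 control arrays. This is a log2 difference of 0.41 ± 0.16 (SE), whose 95% confidence limits were 0.03 and 0.79. The unadjusted limma p was 0.037 and the adjusted p 0.998. Before normalization the intensities of Gsta4 overlapped, at 556, 434 and 409 in control and 679, 707 and 490 in knockdown. Gstt1 had the lowest value of the transferases. It was at 7.29, 7.40 and 7.59 in control and at 7.36, 6.92 and 6.96 in knockdown, a log2 difference of -0.34 ± 0.19 with overlapping groups. The other 6 lay between -0.20 for Gstp1 and 0.06 for Mgst3. Without array 4 Gstp1 was at -0.015. It was read by 3 probes, from -0.21 to 0.13, and its near-identical relative Gstp2 may share signal with it. Gstm1 (-0.15 ± 0.24) and Gstm2 (-0.04 ± 0.26) belong to a family of similar sequences and may likewise share signal. The glutathione S-transferase gene Gsto1 was at -0.11 ± 0.24, and the membrane-bound enzyme gene Mgst1 was at -0.09 ± 0.30.

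Other glutathione genes outside the 43 were examined as a list of 30, of which 21 were tested, 11 above 0 and 10 below. None passed the limma test. Knockdown lay wholly below control for 4 of the 21, Gstm4, Gstm6, Gstk1 and Gpx7, beside 3.5% of all genes. At an unadjusted limma p under 0.05 there were 5 of the 21, beside 3.29% of all genes. These were Gstm4, Gstm6, Gpx7 and Gstp2, lower in knockdown, and Mgst2, higher in knockdown. Gpx7, Gstp2 and Mgst2 each passed the detection filter only through the group where they are higher. Gstm4 was at 7.58, 7.93 and 8.10 log2 units in control and 6.98, 7.19 and 7.30 in knockdown, a log2 difference of -0.71 ± 0.20 (SE). Gstm6 was at 7.25, 7.46 and 7.64 in control and 6.73, 6.54 and 7.19 in knockdown, a log2 difference of -0.63 ± 0.22. Both showed no overlap between groups, while the log2 differences of their relatives Gstm1, Gstm2, Gstm5 and Gstm7 lay between -0.15 and 3.0e-04. As members of this family of similar sequences, Gstm4 and Gstm6 may share signal and may not be separate observations. Gpx7, a peroxidase of the endoplasmic reticulum, was at 6.02, 5.74 and 5.91 in control and 4.96, 4.94 and 5.25 in knockdown. Of the 3 knockdown arrays 1 detected it, so it passed the detection filter through the control group alone, and no size is given for its difference. The counts without overlap in this paragraph include Gpx7, under the same filter as all genes. The adjusted limma p was 0.998 for Gstm4 and Gstm6. Over all 5 lists of further pathway genes, 86 in number, 65 were tested, 34 were above 0, 31 below, and 0 passed in either direction. Their median log2 difference was 0.010. Groups did not overlap for 8 of the 65, beside 7.83% of all genes in both directions together. Akr1b8 and Secisbp2 were the higher ones in knockdown, and Cbr1, Ccs and the 4 glutathione genes above were the lower ones.

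Glutathione synthesis begins with glutamate-cysteine ligase, whose catalytic and modifier subunits are encoded by Gclc and Gclm. Gclm was at 9.91, 10.12 and 9.65 log2 units in control and 9.54, 10.33 and 9.91 in knockdown. Its lowest and highest values were both on knockdown arrays, and the log2 difference was 0.03 ± 0.24 (SE). Gclc was at 5.96, 5.94 and 5.77 in control and 5.71, 6.18 and 6.24 in knockdown, with a difference of 0.15 ± 0.20. These signals are close to the lowest detected signal, 5.23 to 5.34 log2 units, so a change in Gclc could be understated. Gss, the synthetase of the last step, was at -0.15 ± 0.20 with its brightest probe, and its 3 probes ranged from -0.15 to 0.27. No probe was named for the glutathione reductase gene Gsr in the annotation used here.

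The regulators themselves were below 0 with overlapping groups. Nfe2l2 was at 8.35, 8.63 and 9.08 log2 units in control and 9.07, 7.77 and 8.89 in knockdown, a log2 difference of -0.11 ± 0.36 (SE). Array 5 alone held its lowest value, and without array 5 the difference was 0.29. Keap1 was at 10.35, 10.02 and 10.51 in control and 9.72, 10.19 and 10.37 in knockdown, a difference of -0.20 ± 0.23. Without array 4 it was -0.015. Its 4 tested probes were all below 0, from -0.34 to -0.16.

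A pair of targets commonly used as readouts of NRF2 activity varied between arrays, each in its own way. Hmox1, the haem-degrading enzyme gene, was at 9.55, 9.10 and 8.39 log2 units in control and 9.61, 9.13 and 8.62 in knockdown. Its log2 difference was 0.10 ± 0.35 (SE), while it spanned 1.16 log2 units among control arrays and 0.98 among knockdown arrays. Arrays 1 and 4 were the highest and arrays 3 and 6 the lowest. Nqo1, a quinone reductase gene, was at 9.23, 9.57 and 9.88 in control and 8.82, 9.03 and 10.13 in knockdown, with its highest values on arrays 3 and 6. Its difference was -0.23 ± 0.35. A dimmer Nqo1 probe, at 5.20 in control and 5.45 in knockdown and thus close to the lowest detected signal, gave 0.25 ± 0.17, with all 3 knockdown arrays above all 3 control arrays. Srxn1, which repairs overoxidised peroxiredoxins, was at 8.98, 8.62 and 8.66 in control and 8.21, 8.94 and 8.89 in knockdown, a difference of -0.07 ± 0.24. For each of these 3 genes the spread within groups exceeded the difference between them.

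**Figure D3:**
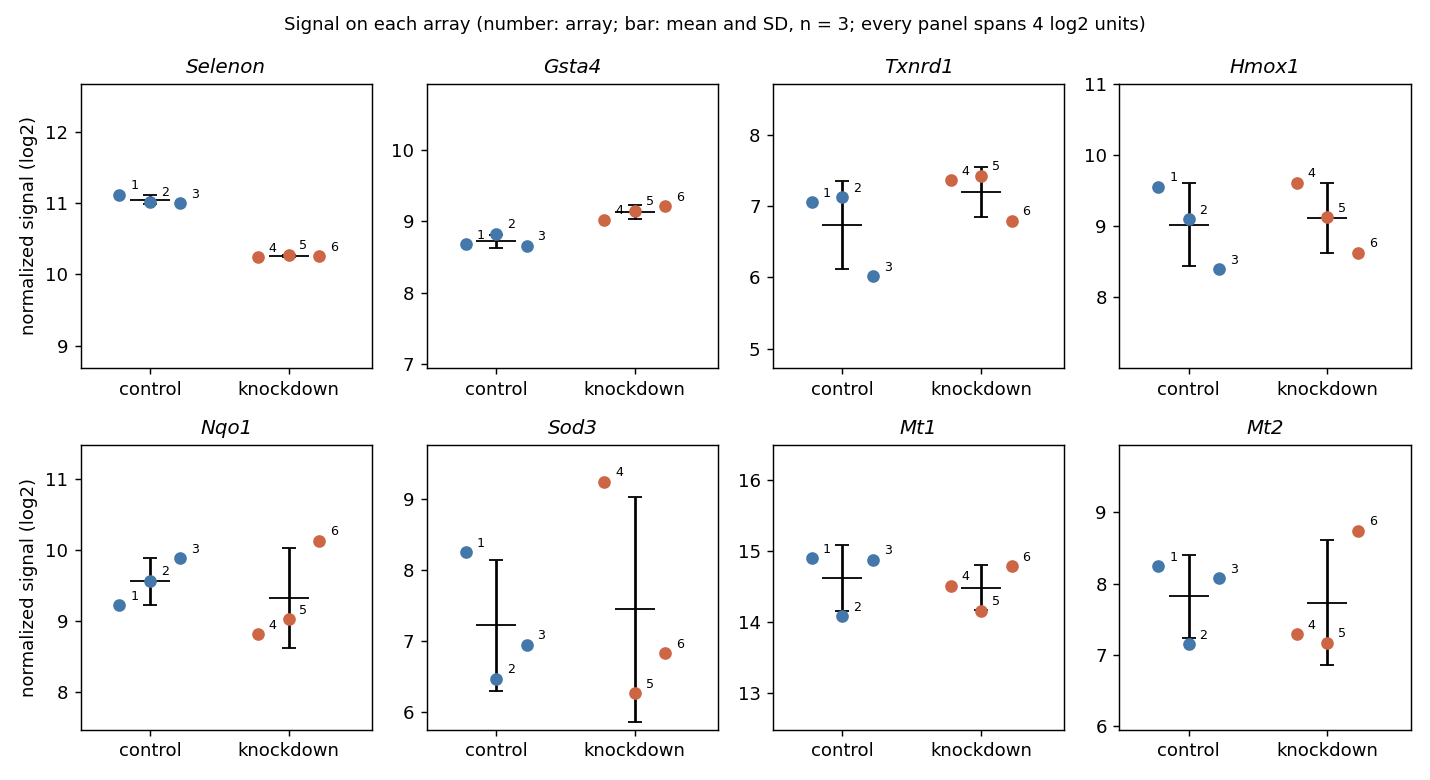
Each panel gives the normalized log2 signal of a member on the 3 control arrays (blue) and 3 knockdown arrays (orange), numbered by array, with the mean and SD as a bar, and every panel spans the same 4 log2 units. Selenon and Gsta4 separate the groups, while Hmox1, Nqo1, Sod3, Mt1 and Mt2 spread within both groups and overlap, and Txnrd1 is low on array 3.

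Promoter windows of 300 bases, 250 before and 50 after the annotated start, were taken from RefSeq on build GRCm38.p6, where 36 of the 43 members matched with 45 windows. The ARE core was searched as TGACNNNGC on both strands. It was present in 11 of the 45 windows (24.4%) and in 12.4% of all 32851 windows. The match is a description of sequence and does not show binding. Some of the tested members that hold it are printed here, so that their values can be set beside their elements. Capitals mark the ARE core, on either strand, and all are read in the direction of the gene. The windows lie at chr3:122245408-122245446 (plus strand) for Gclm, chr10:82859099-82859137 (plus strand, 1 of 3 annotated starts) for Txnrd1, chr4:116685451-116685489 (plus strand) for Prdx1 and chr2:75704880-75704913 (minus strand) for Nfe2l2.
Gclm: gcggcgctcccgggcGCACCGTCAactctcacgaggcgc
Txnrd1: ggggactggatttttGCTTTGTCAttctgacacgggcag
Prdx1: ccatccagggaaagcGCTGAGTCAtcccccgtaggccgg
Nfe2l2: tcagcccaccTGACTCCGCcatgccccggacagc

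These 4 genes did not share a pattern across arrays. Array 5 held the highest value of Gclm, Txnrd1 and Prdx1 and the lowest of Nfe2l2. Array 4 held the lowest value of Gclm and Prdx1, while array 3 held that of Txnrd1. Of all genes, array 5 was highest for 19.7% and lowest for 15.7%, and array 4 was lowest for 25.9%. The log2 difference was 0.47 ± 0.33 (SE) for Txnrd1 and -0.06 ± 0.19 for Prdx1, with overlapping groups for both.

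The thioredoxin and peroxiredoxin system had 9 tested members, 4 above 0 and 5 below, from -0.10 to 0.47. Txnrd1, the cytosolic thioredoxin reductase gene, was at 7.05, 7.13 and 6.02 log2 units in control and 7.37, 7.43 and 6.80 in knockdown. Its difference rests on control array 3, and without that array it was 0.11. The thioredoxin genes Txn1 and Txn2, cytosolic and mitochondrial, were at 0.13 ± 0.25 and 0.21 ± 0.20 (log2 difference ± SE). Txnrd2, the mitochondrial reductase gene, was at -0.10 ± 0.25. The peroxiredoxin genes Prdx1, Prdx2, Prdx3 and Prdx4, whose enzymes reduce hydrogen peroxide, lay between -0.09 and 0.0074. The interval of Prdx2 ran from -0.36 to 0.37 and that of Prdx4 from -0.39 to 0.39. On array 5 all 9 members exceeded their 6-array means, with an average deviation of 0.26 log2 units, while the average on array 4 was -0.15. The excess on array 5 was small for Prdx2, Prdx3 and Prdx4, at 0.04, 0.05 and 0.08. The share of all genes above their means on array 5 was not computed. Array 5 held the highest value for 9 of the 37 tested members, not all of this system, and for 19.7% of all genes. The knockdown arrays thus differed among themselves. No probe was named for Prdx5 or Prdx6.

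**Figure D4:**
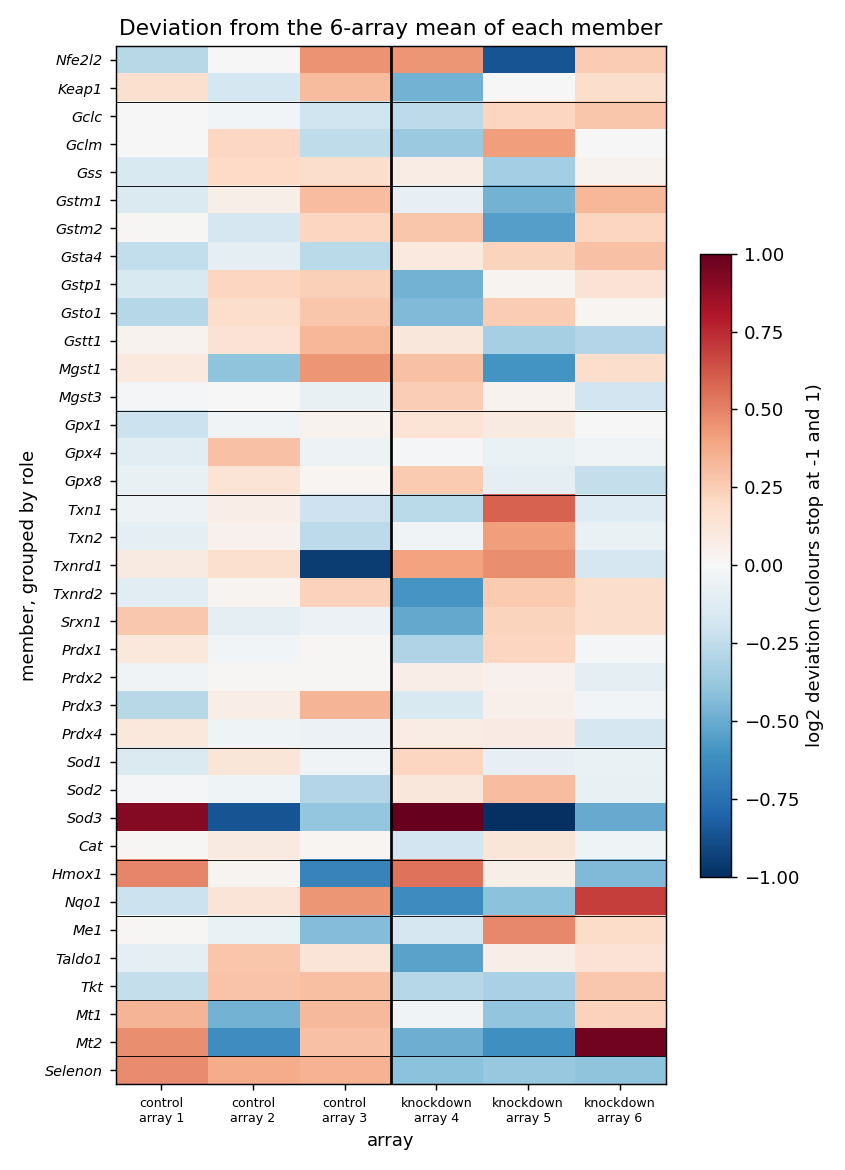
Rows are the 37 tested members grouped by role and columns the 6 arrays, and the colour gives the log2 deviation from the mean of that member over the 6 arrays. The Selenon row splits between groups, Sod3 is high on arrays 1 and 4, and Mt1 and Mt2 are high on arrays 1, 3 and 6. The thioredoxin and peroxiredoxin rows lie above their means on array 5, by little for Prdx2, Prdx3 and Prdx4.

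For the enzymes that remove superoxide and peroxide the groups overlapped throughout. Sod1, the cytosolic dismutase gene, was at 12.28, 12.54 and 12.39 log2 units in control and 12.64, 12.34 and 12.36 in knockdown, a log2 difference of 0.04 ± 0.18 (SE). A dim probe of Sod1 gave -0.28 ± 0.28. Sod2, the mitochondrial form, was at 0.23 ± 0.18. The catalase gene Cat was at 8.65, 8.72 and 8.65 in control and 8.44, 8.75 and 8.59 in knockdown, a difference of -0.08 ± 0.17, and of -0.0025 without array 4. Gpx1 was at 12.997, 13.18 and 13.25 in control and 13.35, 13.30 and 13.21 in knockdown. Its highest control value lay above the lowest knockdown value. Gpx8, which encodes a peroxidase of the endoplasmic reticulum, was at -0.05 ± 0.19, with 3 probes from -0.05 to 0.08.

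Sod3, the secreted superoxide dismutase gene, varied most of all tested members. It was at 8.25, 6.47 and 6.95 log2 units in control and at 9.24, 6.27 and 6.83 in knockdown. Arrays 1 and 4, 1 in each group, stood above the other 4. The SD was 0.92 in control and 1.58 in knockdown, and the log2 difference was 0.22 ± 0.76 (SE). Leaving out single arrays moved it from -0.67 without array 4 to 0.81 without array 5. Arrays 1 and 4 were also the 2 highest for Hmox1, and for 7.17% of all genes. By over 0.5 log2 units they were so for Sod3, not for Hmox1, and for 0.413% of all genes. Among the further pathway genes arrays 1 and 4 were highest for Osgin1, Mafg, Maff, Gstt3 and Slc30a1, by that margin for Osgin1 and Slc30a1. Slc30a1, a zinc exporter gene, was at 8.47 and 8.40 on arrays 1 and 4 and between 6.55 and 7.15 on the others.

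Genes that supply NADPH had overlapping groups. The malic enzyme gene Me1 was at 0.33 ± 0.22 (log2 difference ± SE), and without array 5 it was at 0.17. The pentose phosphate genes Taldo1 and Tkt, which encode transaldolase and transketolase, were at -0.21 ± 0.23 and -0.23 ± 0.24. Without array 4 Taldo1 was at -0.0016. The 3 Tkt probes were all below 0. Of the oxidative branch, G6pdx had no named probe, and the probe of Pgd was detected on 0 of the 6 arrays. Msra, a methionine sulfoxide reductase gene, was not detected by either of its 2 probes.

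The metallothionein genes Mt1 and Mt2 lie next to each other and their matching promoter windows are printed for comparison. MREs were searched as TGCACNC or TGCGCNC on both strands. Of the 45 member windows, 11 held at least 1 (24.4%), beside 25.7% of all windows. The window of Mt2 held 4 and that of Mt1 held 3, as did that of Gclm, and 1.97% of all windows held 3 or more. Mt2 also held an ARE core. Of all ARE and MRE matches in member windows, 1 pair overlapped, in Gclm. The 250 bases before the annotated starts are shown, for Mt1 at chr8:94178839-94179088 and for Mt2 at chr8:94172368-94172617, both on the plus strand of GRCm38.p6. Capitals mark MREs on either strand and, in Mt2, the ARE core TGACTCAGC. The remaining MREs, 2 in Mt1 and 1 in Mt2, follow the annotated start and are not shown.
Mt1: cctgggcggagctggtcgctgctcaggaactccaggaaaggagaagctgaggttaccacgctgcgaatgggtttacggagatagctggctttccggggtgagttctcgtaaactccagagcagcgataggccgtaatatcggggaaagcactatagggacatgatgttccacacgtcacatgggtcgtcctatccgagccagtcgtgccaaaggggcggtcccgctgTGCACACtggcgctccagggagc
Mt2: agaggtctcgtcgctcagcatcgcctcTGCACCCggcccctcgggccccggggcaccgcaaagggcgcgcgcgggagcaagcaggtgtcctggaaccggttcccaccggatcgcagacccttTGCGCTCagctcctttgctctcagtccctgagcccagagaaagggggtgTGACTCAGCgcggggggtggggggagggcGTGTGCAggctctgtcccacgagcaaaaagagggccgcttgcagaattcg

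Mt1 gave a strong signal, with intensities between 16624 and 31852. It was at 14.89, 14.08 and 14.88 log2 units in control and 14.51, 14.16 and 14.78 in knockdown. Mt2 was at 8.24, 7.15 and 8.07 in control and 7.29, 7.17 and 8.74 in knockdown. For both genes arrays 1, 3 and 6 were the 3 highest, by 0.27 log2 units or more for Mt1 and 0.79 or more for Mt2. The log2 difference between the groups was -0.13 ± 0.28 (SE) for Mt1 and -0.09 ± 0.46 for Mt2, both well inside the spread within groups. Arrays 1, 3 and 6 were the highest for 9.48% of all genes, and by over 0.25 log2 units for 2.27%. Keap1 was the only other tested member with this order, by 0.16 log2 units. Among the further pathway genes it was shared by 7, including Aldh3a1, an aldehyde dehydrogenase gene. Aldh3a1 was at 12.81, 11.38 and 12.42 in control and 11.96, 11.57 and 13.02 in knockdown. Neither Mtf1, which encodes the factor that binds MREs, nor the zinc exporter gene Slc30a1 had this order. Mtf1 missed it by only 0.03 log2 units, at 8.41, 6.85 and 7.88 in control and 7.56, 7.53 and 7.53 in knockdown.

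When every probe was fitted by itself, 60 probes of the members were among the 16349 tested. None of the 60 passed an adjusted limma p of 0.05, and 1 probe in all did (0.00612%). For 15 members with several tested probes, the brightest and the others had differences of both signs in 5, namely Gss, Gstp1, Gpx8, Sod1 and Nqo1.

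**Figure D5:**
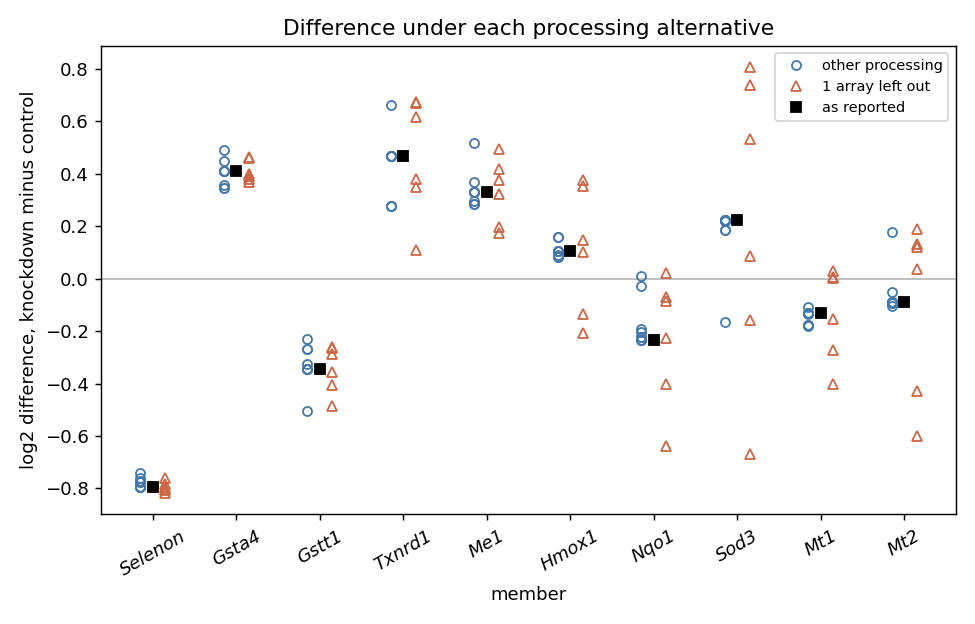
The vertical axis is the log2 difference, knockdown minus control, of 10 members as reported (squares), under other processing (circles) and with 1 array left out (triangles). Selenon stays between -0.82 and -0.74 and Gsta4 between 0.34 and 0.49, while Sod3 and Mt2 lie on both sides of 0.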

How the data were processed

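RNA of 3 control and 3 knockdown samples was labelled with biotin and hybridised to Illumina arrays, per the labels' protocols. The deposited scanner table holds a linear intensity and a detection p-value for each probe and array, per the file headers. The authors' processed table holds intensity values with unstated processing, and every column there equals 1 scanner column of its group after rescaling, to within 0.011 units. Scanner column names give the group but no replicate number, and the files name no slide or scan. The scanner software is not given in the sources used here.

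Intensities were background-corrected, quantile-normalized and put on the log2 scale by limma's neqc (limma 3.58.1, R 4.3.3). The offset was 16, which understates fold changes of dim genes. The background came from the detection p-values. Probes entered the test if all 3 arrays of either group gave a detection p under 0.05, and each gene was represented by its brightest probe. By the platform annotation 34885 probes carry 1 gene symbol, 18 carry several and 10378 carry none. Signals of different probes are not comparable as levels. The groups were compared with lmFit and eBayes over all 9200 genes, with Benjamini-Hochberg adjustment and a threshold of 0.05. Values are given array by array where groups did not overlap, where the difference reached 0.5, and for a fixed set of members. Further pathway genes are named where groups did not overlap and the difference reached 0.5. Others were chosen after their values were seen. Some of these are relatives of members, selenoprotein genes or factors of selenoprotein synthesis. The rest are named for a lack of overlap alone, an unadjusted limma p or their order across arrays. The members and gene lists were chosen with earlier results of these data known. The fit was also run on simulated data with independent noise for each gene and array. That simulation holds no shifts shared by genes on an array, so it does not check the fit against such shifts. The number of arrays limits the precision. Plots used Python 3.11.15 with matplotlib 3.10.9.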

Additional observations from a re-analysis of the deposited data

How the results depend on the processing

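None of the members passed the threshold under any of the 15 alternatives, and 0 further pathway genes did. The alternatives were other background correction, scaling, filters, variance settings, probe rules and array weights, the authors' values with and without a block, and leaving out each array. Over all genes the count was 0 throughout except for 1 when every probe was fitted by itself. Selenon, Gsta4, Gstt1, Txnrd1, Me1, Gpx1, Gclc, Txn2, Sod2, Keap1, Gstp1, Cat, Taldo1 and Tkt kept their signs in all fits by gene that gave a value. Gclc gave none under the stricter filter, and with every probe by itself Gstp1 had probes of both signs. The median of the members was -0.033 with 75th percentile scaling, and it ranged from -0.084 to -7.2e-04 when single arrays were left out, nearest 0 without control array 3. Then 19 of the 37 members were below 0. The count without overlap ranged from 3 to 9 when single arrays were left out, as 2 arrays overlap less easily than 3, while the share of all genes without overlap ranged from 10.6% to 21.0%. The 9 members, without knockdown array 6, stand beside 19.1% of all genes. Genes with an unadjusted p under 0.05 numbered 303, from 109 without control array 3 to 814 with array weights.

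No sign that turned belonged to a value past the threshold, and the cause was not tested. Leaving out single arrays, the log2 differences ranged as follows: Srxn1 -0.20 to 0.16, Prdx1 -0.18 to 0.076, Prdx2 -0.021 to 0.055, Prdx3 -0.25 to 0.060, Prdx4 -0.045 to 0.079, Sod1 -0.052 to 0.11, Sod3 -0.67 to 0.81, Mt1 -0.40 to 0.030, Mt2 -0.60 to 0.19, Gpx4 -0.17 to 0.043, Gpx8 -0.20 to 0.054, Nfe2l2 -0.36 to 0.29, Gclm -0.17 to 0.23, Gstm1 -0.35 to 0.053, Gstm2 -0.19 to 0.23, Gsto1 -0.28 to 0.085, Mgst1 -0.31 to 0.19, Mgst3 -0.050 to 0.17, Hmox1 -0.21 to 0.37, Txn1 -0.14 to 0.29, Txnrd2 -0.25 to 0.17 and Nqo1 -0.64 to 0.023. With 75th percentile scaling Prdx1 was at 0.0026 and Prdx4 at 0.048. With array weights Mgst3 was at -0.032, Srxn1 0.11, Prdx2 -0.045, Sod1 -0.0028, Sod3 -0.16 and Mt2 0.18. Averaging all probes of a gene, Gss was at 0.013, Gpx8 0.019, Sod1 -0.12 and Nqo1 0.0082. With the authors' processed values Prdx2 was at -0.021.

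The replicate number was used on the authors' values, since scanner column names carry none. There the deviations of samples sharing a number had correlations of -0.10, 0.13 and 0.59. Since 1 of these is not above 0.1, the number was treated as a name, not as a pairing. With the replicate block 0 members passed, Prdx2 was at -0.021 and Selenon at -0.78. The SE of Hmox1 was 0.31 without the block and 0.12 with it, and for Sod3 it was 0.60 and 0.22. A ratio under 0.5 was found for these 2 members and for 2.3% of all genes. The median ratio of the SE with the block to that without was 0.791 over the members and 0.925 over all genes.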
